A study of Homo sapiens with 14 samples.

Results

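The let-7 family without let-7e was followed through 14 small RNA libraries made from extracellular vesicles, the membrane particles that cells release into their medium. Its members were chosen by name from the raw count table: the 5p let-7 miRNAs other than let-7e-5p, with miR-98-5p, which gave 8 of the 2632 miRNAs listed. All 8 had at least 1 count in some library, and 4 of them (let-7a-5p, let-7b-5p, let-7c-5p and let-7i-5p) passed the filter on low values that left 47 miRNAs for testing.

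The vesicles came from medium conditioned by pro-epicardial cells, precursors of the outer cell layer of the heart, derived from the human embryonic stem cell line hES-2. All cells were thawed from frozen stock, plated and fed the same supplemented StemPro medium. NT cells received nothing further (3 libraries), and their vesicles are labelled pro-epicardial. SB cells received 6 µM SB-431542, a blocker of the TGF-β type I receptor, for 8 days (4 libraries), and are labelled mature epicardial. For TGFb, TGF-β1 was present at 5 ng/ml over 4 days, and 4 days without it followed (4 libraries). For FGF, basic FGF was present at 10 ng/ml over all 8 days (3 libraries). All medium used from day 4 had been passed through a 100 kDa filter, and it was collected on days 6 and 8 after 48 h on the cells. All groups rest on 1 cell line, and no label says whether replicates were separate cultures, so p-values measure the spread between these samples only. Vesicles were sequenced in bulk, so fewer vesicles of a kind and less of a miRNA per vesicle cannot be told apart.

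let-7 miRNAs are cut from hairpin precursors and guide Argonaute proteins to messenger RNAs that pair with the seed, bases 2 to 8 of the mature strand. In stem cells the RNA-binding protein LIN28 blocks their maturation, and the family is known for rising as cells leave the pluripotent state. LIN28A, HMGA2 and RAS family messages are among its best-known targets.

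The mature sequences are shown because the members are told apart by 1 to 4 bases from let-7a-5p, which is also what a counting program has to read. They are given 5′ to 3′ from RefSeq on GRCh38.p14, with the seed in capitals, and all 9 names matched.
let-7a-5p: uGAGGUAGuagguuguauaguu
let-7b-5p: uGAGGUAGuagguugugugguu
let-7c-5p: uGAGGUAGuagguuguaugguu
let-7d-5p: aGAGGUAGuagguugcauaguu
let-7f-5p: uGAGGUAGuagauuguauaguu
let-7g-5p: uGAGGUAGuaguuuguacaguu
let-7i-5p: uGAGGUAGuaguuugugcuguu
miR-98-5p: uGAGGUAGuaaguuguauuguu
let-7e-5p: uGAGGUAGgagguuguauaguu

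All 9 carried the seed GAGGUAG, which 11 of 2370 RefSeq mature miRNAs hold (0.464%). The other 2 holders, miR-4458 and miR-4500, had no count in any library. Counting positions from 1 at the 5′ end of let-7a-5p, let-7c-5p differs from it by A19G, let-7b-5p by A17G and A19G, and let-7f-5p by G12A. let-7i-5p differs by G12U, A17G, U18C and A19U, let-7g-5p by G12U and U18C, let-7d-5p by U1A and U16C, and miR-98-5p by G11A and A19U. let-7e-5p differs by U9G alone. let-7b-5p and let-7c-5p are also 1 base apart. How reads were split between such near-identical sequences is not given in the sources used here, so the division among members is uncertain.

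The 8 members come from 11 precursor genes, given here with the overlap on the same strand in GENCODE 29. let-7a-5p sums over MIRLET7A1 (chr9:94175957-94176036, plus strand), MIRLET7A2 (chr11:122146522-122146593, minus strand, in an intron of MIR100HG) and MIRLET7A3 (chr22:46112749-46112822, plus strand, in an exon of MIRLET7BHG). let-7b-5p has the single gene MIRLET7B (chr22:46113686-46113768, plus strand), also in an exon of MIRLET7BHG, and let-7c-5p the single gene MIRLET7C (chr21:16539828-16539911, plus strand, in an intron of MIR99AHG). let-7f-5p sums over MIRLET7F1 (chr9:94176347-94176433, plus strand) and MIRLET7F2 (chrX:53557192-53557274, minus strand, in an intron of HUWE1). MIRLET7D lies at chr9:94178834-94178920 on the plus strand, and all 3 genes on this chromosome lie in introns of the long non-coding gene AL158152.2. MIRLET7I (chr12:62603686-62603769, plus strand) lies in an intron of the non-coding gene AC048341.1. MIRLET7G (chr3:52268278-52268361, minus strand) lies in an intron of WDR82 and MIR98 (chrX:53556223-53556341, minus strand) in an intron of HUWE1.

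Depth was low and uneven. The raw table held 47091 counts. FGF replicate 2 was the shallowest library (115 counts) and NT replicate 1 the deepest (14862), a 129-fold range. The 4 libraries under 500 counts (FGF replicate 2, SB replicates 1 and 2, and TGFb replicate 2) held 870 counts together, 1.85% of the table. In the shallowest library 1 count was 0.870% of the total, and a count of 0 there allows a share of up to 2.61%. Intervals and limits of this kind cover counting error only.

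Together the 8 members took 565 counts, 1.20% of the table, while let-7e-5p alone took 1323 counts (2.81%). let-7a-5p was the most counted member with 224, followed by let-7b-5p (150), let-7f-5p (81), let-7c-5p (73) and let-7i-5p (26). let-7g-5p had 5 counts, 1 in each of 5 libraries, miR-98-5p had 4 in 3 libraries, and let-7d-5p had 2, both in NT replicate 1. At these counts no difference between groups was detectable for these 3. Of the 10 passenger arms of the members' hairpins, the strands usually discarded, only let-7d-3p had a count, and it had 1. Among neighbours of the same gene clusters, miR-125b-5p had 844 counts, miR-100-5p 23 and miR-99a-5p 9.

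The summed counts of the 8 members moved far less than the library totals. They were 80, 96 and 15 in NT replicates 1, 3 and 4, and 25, 30, 22 and 23 in SB replicates 1 to 4. In TGFb replicates 1 to 4 they were 24, 18, 94 and 50, and in FGF replicates 2 to 4 they were 9, 67 and 12. The sums thus spanned 10.7-fold where totals spanned 129-fold, and the 4 SB libraries lay between 22 and 30 although their totals ran from 179 to 3826.

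As a share of the library, the same sums ran from 0.538% in NT replicate 1 to 16.8% in SB replicate 2 (30 of 179 counts). The 4 libraries under 500 counts stood between 7.25% and 16.8%, and the other 10 between 0.538% and 2.07%. Pooled, the members took 9.43% of counts in the 4 shallow libraries and 1.04% in the others, a 9.02-fold difference. let-7e-5p took 2.07% and 2.82% of the same 2 sets. By group, the mean summed share was lowest in NT (1.01% ± 0.473, SD, n = 3) and highest in SB (6.59% ± 7.37, n = 4). TGFb had 3.14% ± 3.11 (n = 4), FGF had 3.76% ± 3.54 (n = 3), and every group overlapped every other. SB holds 2 of the shallow libraries, TGFb and FGF hold 1 each and NT holds none, so a group's mean share and its depth move together.

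**Figure D1:**
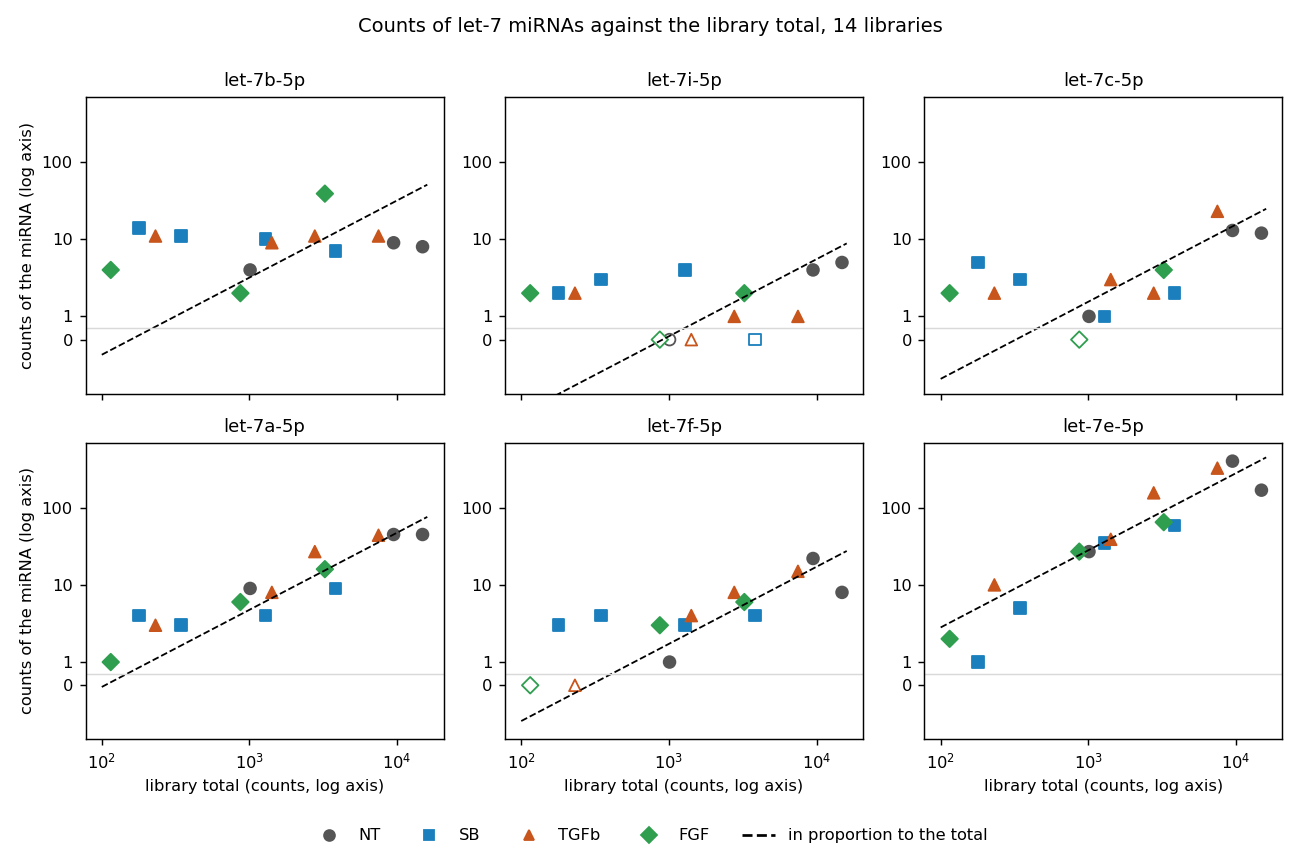
Counts of 5 let-7 members and of let-7e-5p (vertical log axis, with 0 drawn as an open symbol below the grey line) against the library total (horizontal log axis) in 14 libraries, with the group given by colour and shape. The dashed line is the count expected if the miRNA kept its share of all 47091 counts: let-7e-5p follows it, and let-7b-5p stays between 2 and 39 counts at every total.

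let-7b-5p showed the flattest counts among the members seen in every library. It had 8, 9 and 4 counts in NT replicates 1, 3 and 4, and 11, 14, 7 and 10 in SB replicates 1 to 4. In TGFb replicates 1 to 4 it had 9, 11, 11 and 11, and in FGF replicates 2 to 4 it had 4, 39 and 2. In 13 of the 14 libraries the count lay between 2 and 14, and FGF replicate 3 stood above them with 39. The 4 shallow libraries held 40 of its 150 counts (26.7%), against 1.85% of all counts. Its share was 4.60% over those 4 libraries and 0.238% over the others, a 19.3-fold difference, and single libraries ran from 0.0538% in NT replicate 1 to 7.82% in SB replicate 2.

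let-7i-5p behaved similarly at a lower level. Its counts were 5, 4 and 0 in NT, 3, 2, 0 and 4 in SB, 0, 2, 1 and 1 in TGFb, and 2, 2 and 0 in FGF, in the order of the replicate numbers. No library had more than 5, and the shallow libraries held 9 of its 26 counts (34.6%). Its 4 zeros allow shares of up to 0.0784% in SB replicate 3, 0.212% in TGFb replicate 1, 0.297% in NT replicate 4 and 0.346% in FGF replicate 4. The 4 shallow libraries had 0.866% to 1.74% from 2 or 3 counts each, with lower 95% Wilson limits of 0.238% to 0.478%. By these limits the zero in NT replicate 4 does not separate from TGFb replicate 2 (0.238%) or SB replicate 1 (0.296%). The limits on zeros are not Wilson limits. The upper Wilson limit of NT replicate 4 lies above the lower limit of SB replicate 2 (0.307%), so these libraries do not separate either. The zero in NT replicate 4 lies below FGF replicate 2 (0.478%) by both kinds of limit. The zero in FGF replicate 4 lies below FGF replicate 2 only.

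let-7c-5p, 1 base from both let-7a-5p and let-7b-5p, was intermediate. It had 12, 13 and 1 counts in NT, 3, 5, 2 and 1 in SB, 3, 2, 23 and 2 in TGFb, and 2, 4 and 0 in FGF. Its 3 highest counts fell in the 3 deepest libraries, but the shallow libraries still held 12 of its 73 counts (16.4%).

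let-7a-5p, which 3 genes encode, had the highest counts in the deepest libraries. It had 45, 45 and 9 counts in NT, 3, 4, 9 and 4 in SB, 8, 3, 44 and 27 in TGFb, and 1, 16 and 6 in FGF. The 3 deepest libraries had 44 or 45, the shallow ones 1 to 4, and those 4 held 11 of its 224 counts (4.91%). Its share was 1.26% in the shallow libraries and 0.461% in the others, a 2.74-fold difference.

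let-7f-5p did not pass the filter although it had more counts than let-7c-5p or let-7i-5p. It had 8, 22 and 1 counts in NT, 4, 3, 4 and 3 in SB, 4, 0, 15 and 8 in TGFb, and 0, 6 and 3 in FGF. The 4 SB libraries held 3 or 4 at every total. The filter works on CPM, the count scaled to the library total, so a few counts in a shallow library carry a miRNA past it: let-7i-5p passed with 26 counts and let-7f-5p failed with 81.

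The relation between count and total was tested across all miRNAs with edgeR, as the slope of log2 count on log2 total with the groups in the fit. A count in proportion to the total has slope 1 and a count that ignores it has slope 0. let-7b-5p had a slope of 0.19 (SE 0.16, 95% interval −0.14 to 0.53), below 1 with an adjusted p of 0.00130. let-7i-5p had a slope of 0.05 (SE 0.30, interval −0.58 to 0.68, edgeR adjusted p = 0.0373). The other 2 members did not pass: let-7c-5p had 0.38 (SE 0.26, edgeR adjusted p = 0.0991) and let-7a-5p 0.64 (SE 0.15, edgeR adjusted p = 0.0991). let-7e-5p had a slope of 1.05 (SE 0.11, interval 0.82 to 1.28, edgeR adjusted p = 0.925), and the median over all 47 miRNAs was 0.95. The interval of let-7e-5p does not overlap that of let-7b-5p or let-7i-5p, but the difference between slopes was not tested.

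Of the 47 miRNAs, 9 passed with a slope below 1 (19.1%), against 2 of the 4 tested members. Before adjustment, the 95% interval lay below 1 for 12 of the 47 miRNAs, all 4 tested members among them. let-7c-5p and let-7i-5p reached the level of the filter only in the 4 shallow libraries. Outside these, let-7b-5p reached it only in SB replicate 4 and FGF replicate 3, and let-7a-5p only in NT replicate 4 and TGFb replicate 4. The filter asked for this level in as many libraries as the smallest group holds (3). All 4 tested members thus needed shallow libraries to be admitted. Their slopes below 1 are partly fixed by this, and these member counts are no independent evidence. Because the filter favours miRNAs that are high in shallow libraries, the slopes were also fitted with other filters. Asking for a sum of at least 20 counts, chosen after the data were seen, left 123 miRNAs with 5 members: 7.32% passed, and the same 2 members with them, while let-7f-5p had a slope of 0.71 (SE 0.27, edgeR adjusted p = 0.778). Asking for a mean of at least 10 counts left 48 miRNAs, of which let-7b-5p was the only one to pass (2.08%) and let-7a-5p the only other member. With no filter, 2.91% of 447 miRNAs passed, with let-7b-5p and let-7i-5p among them.

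In 14 fits 1 library was left out. From 3 of 56 miRNAs (without NT replicate 1) to 9 of 44 (without TGFb replicate 4) passed with a slope below 1. let-7b-5p passed in each of these 14 fits. Its slope there ran from −0.03 without FGF replicate 3 to 0.27 without TGFb replicate 2. let-7i-5p passed in 7 of them and was lost without any one of NT replicates 1 and 3, SB replicate 3, TGFb replicates 2 and 3, and FGF replicates 2 and 3, where the edgeR adjusted p was 0.0569 to 0.144. With only the 10 libraries of at least 500 counts, 13.9% of 72 miRNAs passed and no member did. let-7b-5p had a slope of 0.41 there (edgeR adjusted p = 0.210), and let-7i-5p and let-7c-5p did not pass the filter.

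**Figure D2:**
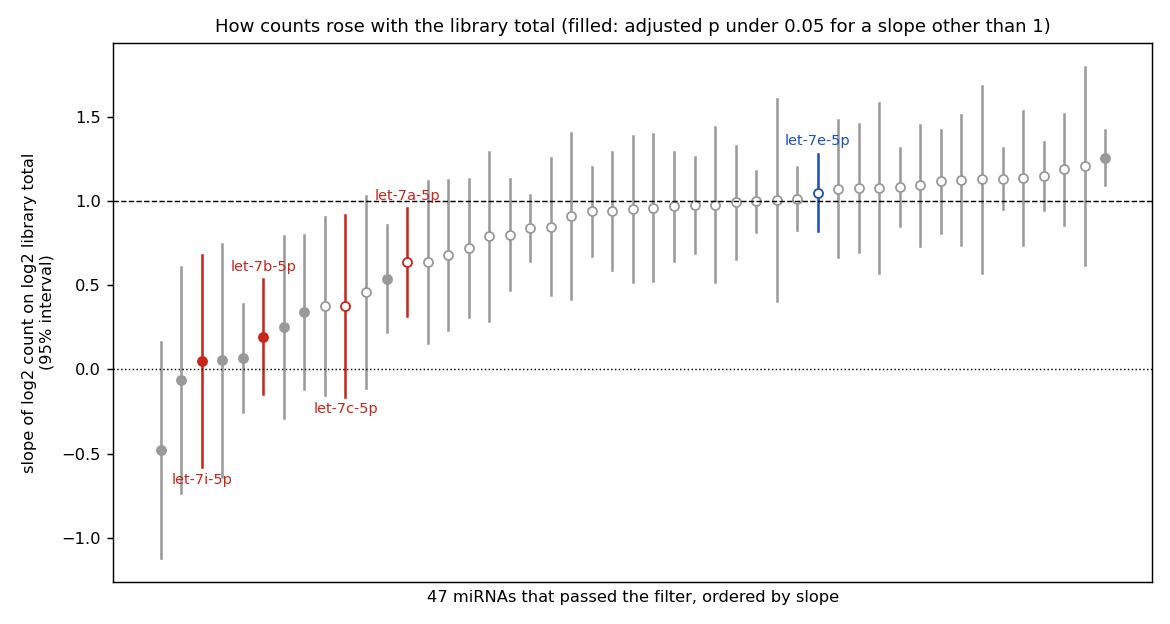
Slope of log2 count on log2 library total with its 95% interval (vertical axis) for the 47 tested miRNAs in order of slope, members in red, let-7e-5p in blue, filled points past an adjusted p of 0.05. let-7i-5p and let-7b-5p lie near the dotted line of slope 0, and let-7e-5p lies on the dashed line of slope 1.

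Counts and totals were also compared by rank over the 14 libraries. Of 47 miRNAs, 35 rose with the total of all other miRNAs (74.5% past an adjusted p of 0.05 over the 47), and 1 of the 4 members was among them. For let-7a-5p, Spearman's rho was 0.925 (permutation p = 2e-05, adjusted p = 5.22e-05) and Pearson's r on log10 values 0.927 (permutation p = 1e-05, the smallest that 100000 resamples can give). For let-7b-5p, rho was 0.00668 (permutation p = 0.985, adjusted p = 0.985) and r was 0.181 (permutation p = 0.545). For let-7i-5p, rho was 0.131 (permutation p = 0.652, adjusted p = 0.697) and r was 0.0714 (permutation p = 0.806). For let-7c-5p, rho was 0.494 (permutation p = 0.0734, adjusted p = 0.0932) and r was 0.542 (permutation p = 0.0450, adjusted p = 0.0572). With NT replicates 1 and 3 left out, the 2 whose totals lay farthest from the median, r was 0.888 for let-7a-5p, 0.245 for let-7b-5p, 0.310 for let-7c-5p and −0.378 for let-7i-5p. A rho that misses the threshold does not show that a count ignores the total. let-7c-5p passed without SB replicate 2 (rho = 0.643, permutation p = 0.0211, adjusted p = 0.0301). In the 10 libraries of at least 500 counts let-7c-5p passed too (rho = 0.878, permutation p = 0.00139, adjusted p = 0.00503), beside let-7a-5p (rho = 0.860, permutation p = 0.00265, adjusted p = 0.00731). There let-7i-5p had a rho of 0.604 (permutation p = 0.0723, adjusted p = 0.110) and let-7b-5p 0.323 (permutation p = 0.358, adjusted p = 0.431).

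The same values were set side by side within replicate numbers, since 3 of the 4 shallow libraries carry the number 2. Among the libraries numbered 1, let-7b-5p had 8 counts at a total of 14862 (NT), 9 at 1418 (TGFb) and 11 at 345 (SB). Among those numbered 3 it had 9 at 9462 (NT), 11 at 7478 (TGFb), 7 at 3826 (SB) and 39 at 3241 (FGF). Among those numbered 4 it had 11 at 2770 (TGFb), 10 at 1286 (SB), 4 at 1010 (NT) and 2 at 868 (FGF), and among those numbered 2 it had 11 at 231 (TGFb), 14 at 179 (SB) and 4 at 115 (FGF). The counts ran against the totals in the number 1 libraries and with them in the number 4 libraries. With the replicate number as a block, 12.8% of the 47 miRNAs passed: let-7b-5p held (slope 0.19, edgeR adjusted p = 0.0369) and let-7i-5p did not (0.43, adjusted p = 0.662).

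The make-up of the family differed between the shallowest and the deepest libraries. let-7b-5p took 44.0% to 61.1% of member counts in the 4 shallow libraries, and let-7a-5p 11.1% to 16.7%. In the 3 deepest libraries let-7b-5p took 9.38% to 11.7% and let-7a-5p 46.8% to 56.2%. Between them the shares did not follow depth in order: let-7b-5p took 58.2% in FGF replicate 3, at a total of 3241. The ratio of let-7a-5p to let-7b-5p counts, which does not contain the library total, was 5.62, 5.00 and 2.25 in NT replicates 1, 3 and 4. It was 0.273, 0.286, 1.29 and 0.400 in SB replicates 1 to 4, below all NT libraries. In TGFb replicates 1 to 4 it was 0.889, 0.273, 4.00 and 2.45, and in FGF replicates 2 to 4 it was 0.250, 0.410 and 3.00, so both groups overlapped NT. The ratio still went with depth, at 0.250 to 0.286 in the 4 shallow libraries and 4.00 to 5.62 in the 3 deepest. SB holds shallow libraries and NT holds none, so group and depth cannot be told apart in it. How often other pairs of miRNAs separate SB from NT was not tested. let-7e-5p outnumbered the 8 members in 9 of the 10 deeper libraries, by 1.52 to 4.19 times, and reached 0.970 of their sum in FGF replicate 3. In the shallow libraries it reached 0.0333 to 0.556 of their sum.

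**Figure D3:**
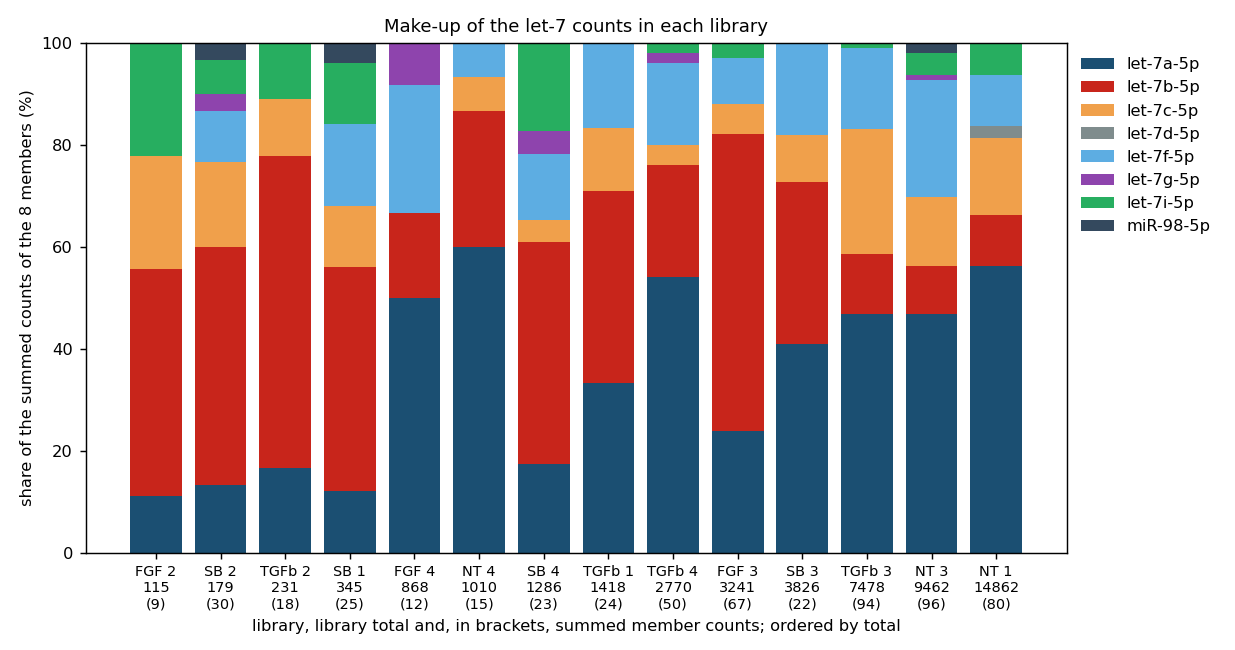
Share of the summed counts of the 8 members taken by each (stacked bars, vertical axis in percent) in 14 libraries ordered by total, with the total and, in brackets, the summed member counts under each bar. let-7b-5p takes the largest part of the 4 leftmost libraries and let-7a-5p the largest part of the 3 rightmost.

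Vesicles of mature epicardial cells (SB) were compared with those of untreated cells (NT). The share of let-7b-5p was 2.99% ± 3.47 (SD, n = 4) in SB and 0.182% ± 0.187 (n = 3) in NT, and the groups overlapped because SB replicate 3 (0.183%) lay below NT replicate 4 (0.396%). Its log2 fold change was 3.97 (SE 1.28) and did not pass (edgeR adjusted p = 0.104). let-7i-5p (3.17, SE 2.04), let-7c-5p (2.25, SE 1.69) and let-7a-5p (0.20, SE 0.89) did not pass either (edgeR adjusted p = 0.441 to 0.930). Of the 47 miRNAs, 2.13% passed (1 miRNA), and unadjusted p-values under 0.05 numbered 6, against 0 and 1 among the 4 members. The median fold change was 2.71 over the 4 members and −0.04 over all 47. let-7c-5p and let-7i-5p reached the level of the filter only in shallow libraries, none of them NT. let-7b-5p did not reach it in any NT library either. Its fold change and the median of the members are thus partly set by the filter, and the median is not a test. DESeq2 called let-7b-5p higher in SB (log2 fold change 4.27, adjusted p = 0.0125), where 3 of 47 miRNAs passed. So did edgeR without SB replicate 3 (4.43, adjusted p = 0.0400), where 2 of 45 miRNAs passed. Without NT replicate 4 it was called too (4.56, edgeR adjusted p = 0.0192), among 9 of 53 miRNAs. Without TGFb replicate 2 it was called (3.97, edgeR adjusted p = 0.0492) among 2 of 46. With total depth as a covariate the fold change was 1.35 (edgeR adjusted p = 0.812), and with libraries of at least 500 counts 1.15 (adjusted p = 0.708). As counts, let-7b-5p averaged 10.5 ± 2.89 in SB, and the NT libraries had 4 to 9.

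TGF-β1 was compared with no treatment. let-7b-5p averaged 1.49% ± 2.19 (n = 4) of counts in TGFb, where replicate 2 held 4.76% and the others 0.147% to 0.635%, so the groups overlapped. Its log2 fold change was 2.88 (SE 1.24, edgeR adjusted p = 0.799). The other 3 members had fold changes of 0.70 (let-7a-5p) to 1.36 (let-7c-5p), with edgeR adjusted p from 0.935 to 0.955. None of 47 miRNAs passed in edgeR (0%), 2 had an unadjusted p under 0.05, and DESeq2 also called no member. The median was 1.08 over the members and 0.09 over all 47. The filter limits this member value and the fold change of let-7b-5p as it does for SB. Without TGFb replicate 2 the fold change of let-7b-5p was 1.67, and 1.17 with total depth as a covariate.

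Basic FGF was compared with no treatment. let-7b-5p averaged 1.64% ± 1.67 (n = 3) of counts in FGF, with 3.48% in replicate 2, 1.20% in replicate 3 and 0.230% in replicate 4, the last of which lay within the NT range. Its log2 fold change was 2.74 (SE 1.30, edgeR adjusted p = 0.263). The other 3 members ran from −0.11 (let-7a-5p) to 1.85 (let-7i-5p), none of them passing. One of 47 miRNAs passed (2.13%), none of them a member, and 8 had an unadjusted p under 0.05. The median was 1.25 over the members and 0.00 over all 47 (−0.00111). The same limits from the filter hold for this member value and for let-7b-5p. The 39 counts of let-7b-5p in FGF replicate 3 were the highest of any library, where the next had 14, and without FGF replicate 3 the fold change was 2.01. It was 1.22 with total depth as a covariate (edgeR adjusted p = 0.533). The 3 comparisons with NT share the NT libraries and so are not independent.

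**Figure D4:**
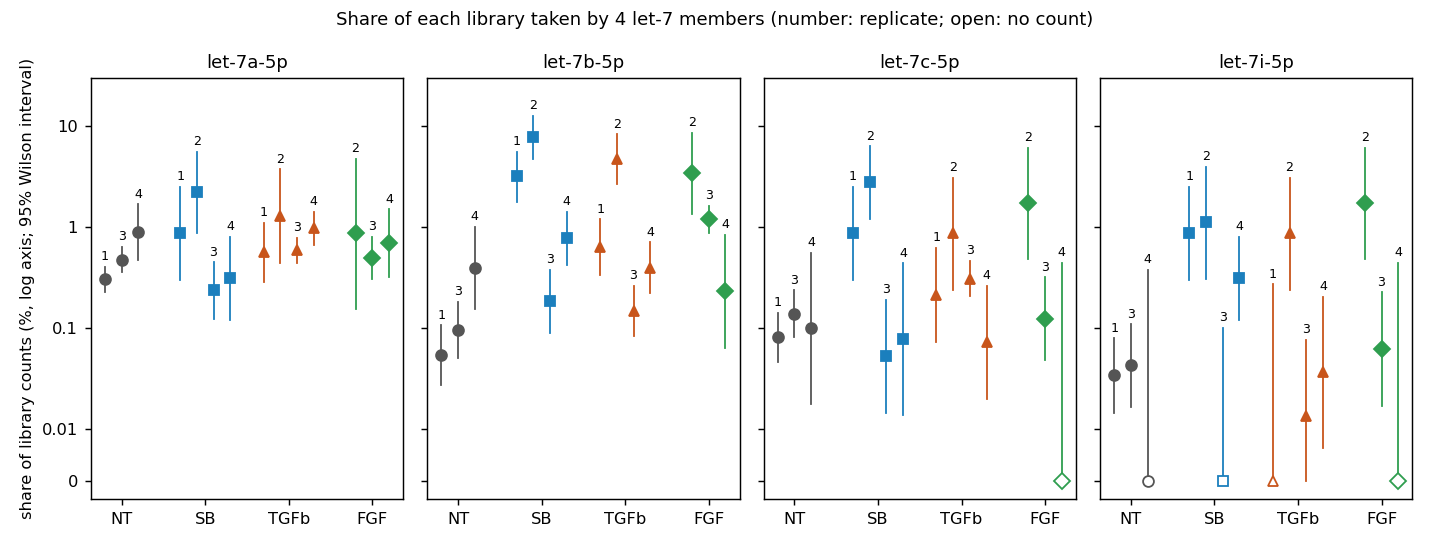
Share of the library's counts (vertical log axis, percent, with 0 drawn as an open symbol) taken by 4 members in the 14 libraries by group, with 95% Wilson intervals and the replicate number above each point. For let-7b-5p the 3 NT libraries lie between 0.0538% and 0.396%, and each other group has at least 1 library inside that range.

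Between the stimulated groups no member passed. Against SB, the 4 members had log2 fold changes of −2.36 to 0.50 in TGFb and −1.61 to −0.32 in FGF, and TGFb against FGF gave −1.05 to 0.81, with edgeR adjusted p from 0.879 to 0.970. In each of these 3 comparisons 0% of the 47 miRNAs passed. An unadjusted p under 0.05 was reached by 4, 3 and 7 miRNAs, and by no member. Over the 4 groups together 0% passed, 5 miRNAs had an unadjusted p under 0.05, and let-7b-5p was the member with the smallest adjusted p (edgeR adjusted p = 0.368). A fit blocked on replicate number passed 3 of the 47 miRNAs for TGFb against SB, 1 for FGF against SB, 2 for TGFb against FGF and 4 over the 4 groups, none of them a member. The TMM factors mattered for these values: with library size alone the median of all 47 miRNAs moved to −0.70 for TGFb against FGF and to 0.41 for FGF against NT, where let-7a-5p changed sign to 0.28. For TGFb against FGF, 3 of the 4 members had a fold change above 0 with TMM and 2 with library size alone.

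The authors' adjusted table changed let-7b-5p more than let-7a-5p. Of the 72 values above 0 that the 8 members have in the raw table, 52 were altered. In the 3 libraries numbered 2, let-7b-5p went from 14 to 3 (SB), from 11 to 3 (TGFb) and from 4 to 1 (FGF). In those numbered 3 it went from 9 to 24 (NT), from 7 to 18 (SB), from 11 to 29 (TGFb) and from 39 to 102 (FGF). let-7a-5p moved between −0.58 and 0.92 on the log2 scale in all libraries. In the adjusted table the slope of let-7b-5p on the raw total was 0.66 (limma adjusted p = 0.114). That of let-7i-5p stayed below 1 (0.24, limma adjusted p = 0.0164). It was the only member among the 4 of 47 miRNAs that passed below 1 there.

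**Figure D5:**
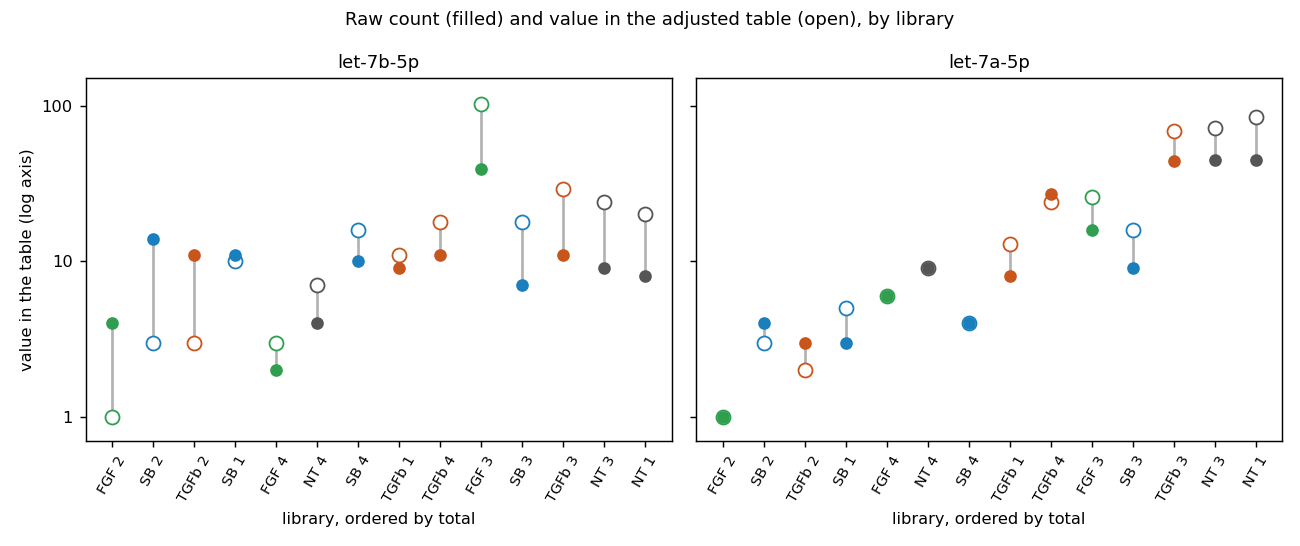
Raw count (filled) and value in the authors' adjusted table (open) of let-7b-5p and let-7a-5p (vertical log axis) in the 14 libraries ordered by total. Values of let-7b-5p fall to 3 or 1 in the libraries numbered 2 and rise to 102 in FGF replicate 3.

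The miRNAs most like the family across the 14 libraries, by Pearson's r between their log2 CPM and that of the summed members, were miR-9-5p (0.833), miR-143-3p (0.734), miR-126-3p (0.567), miR-21-5p (0.564) and miR-1246 (0.544). All share the library totals: the summed members had r = −0.885 with the log2 total on this scale and miR-9-5p −0.972. For miR-143-3p this r was −0.763, for miR-21-5p −0.689, for miR-1246 −0.668 and for miR-126-3p −0.440. Slopes on the total were 0.07 (SE 0.15) for miR-9-5p and 0.34 (SE 0.22) for miR-143-3p. They were 0.38 (SE 0.26) for miR-126-3p, 0.54 (SE 0.15) for miR-21-5p and 0.84 (SE 0.10, edgeR adjusted p = 0.338) for miR-1246.

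Markers of other sources were read from fixed lists. Of the 7 serum and red cell miRNAs, 4 had counts and 2 were tested. miR-122-5p, a liver miRNA found in serum, had a slope of −0.06 (SE 0.32, edgeR adjusted p = 0.0358) and held 8 of its 34 counts in the shallow libraries. miR-16-5p, abundant in blood cells, had a slope of 0.85 (SE 0.20, edgeR adjusted p = 0.818). The list's summed share ran from 0.161% to 2.18% in NT, 1.52% to 4.47% in SB, 0.348% to 1.55% in TGFb and 1.74% to 4.72% in FGF, and was 2.41% in the shallow libraries against 0.891% in the others. miR-16-5p gave 390 of the list's 433 counts, so this share mostly reads that miRNA and is no measure of serum or red cell RNA. miR-451a, the defining red cell miRNA, was at 0 in every library, as were miR-144-3p and miR-150-5p. What part RNA from serum or medium had in the let-7 counts was not tested. Of 8 miRNAs of undifferentiated stem cells, in which let-7 is held back, 2 had counts, 5 in all and at most 2 in a library, each in libraries of at least 500 counts. No miRNA defines epicardial cells, so that label was not checked.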

How the data were processed

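Per the labels' protocols, vesicle RNA came from a polyethylene glycol precipitate by miRNeasy Micro extraction, and QIAseq miRNA chemistry was used for the libraries. In the raw table the authors deposited, values are whole counts per miRNA without normalization, and GRCh38 is the build in the submitters' processing notes. The aligner and the use of molecular identifiers are not given in the sources used here. A second deposited table holds values the authors adjusted, treated as a score because no source used here says how. Its 14 CPM columns per library, 4 columns of group means and 2 lines that name no miRNA were not used.

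Groups were taken from the labels. Raw counts were fitted with edgeR 4.0.16 (glmQLFit, robust, TMM) in R 4.3.3, with all 14 libraries in 1 fit and group means only, on the 47 miRNAs that filterByExpr kept (by group, min.count 10). Adjusted p-values are Benjamini-Hochberg values over all miRNAs tested, with a threshold of 0.05. Standard errors are the absolute coefficient over the square root of F. For slopes, log2 of the library total entered the fit beside the group, with the total as offset and no TMM. Count and total were also correlated with 100000 permutations, two-sided. Alternatives used DESeq2 1.42.0, limma 3.58.1 on the log2 of adjusted values with a pseudocount of 1, other factors and filters, the replicate block, depth in the fit and each library left out.

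All 18 pairs of replicates within groups differed beyond counting noise (chi-square test with 1999 resamples, p = 0.0005 in each, the smallest it can give), so none was merged. Precision follows depth: a single count stood for 0.870% of FGF replicate 2 and 0.00673% of NT replicate 1. All 8 members are named, let-7e-5p is given for contrast, and the 5 miRNAs most like the summed members are named by Pearson's r. The members and lists were chosen with earlier results of these data known.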

Additional observations from a re-analysis of the deposited data

Results flagged for a closer look

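In SB and TGFb, the groups of 4, counts and shares of the 4 tested members and of the 8 summed were searched for 1 library that stood away from its group. Of 20 such sets, 6 had one. The search assumes 4 like values, so no number expected by chance is given. Ties among small counts and unequal library totals can each set 1 library apart. The sets are not independent, since shares and sums reuse the same counts.

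TGFb replicate 2, which held 231 counts, stood above the other TGFb libraries in 3 shares. let-7b-5p took 4.76% there against 0.147% to 0.635%, let-7i-5p took 0.866% against 0 to 0.0361%, and the 8 members together took 7.79% against 1.26% to 1.81%. The let-7i-5p value rests on 2 counts.

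As counts, let-7b-5p in TGFb replicate 1 (9) lay below the other 3, which each had 11, a gap of 2 counts. let-7c-5p had 23 counts in TGFb replicate 3, the deepest of its group, against 2 or 3 in the others. let-7a-5p had 9 counts in SB replicate 3, also the deepest of its group, against 3 or 4.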

How the results depend on the processing

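No member was called in 6 of the 7 group tests under any alternative run. The exception was SB against NT, where let-7b-5p made 1 call with DESeq2 and 0 to 1 when each library was left out, and none in the other 10 settings. Members that passed with a slope below 1 numbered 2 in the reported fit. They numbered 1 with the replicate block, a mean of at least 10 counts, the total without the 10 most abundant miRNAs and the adjusted table. They numbered 0 in libraries of at least 500 counts, and 1 to 2 when each library was left out. Among all miRNAs, 3 of 47 passed below 1 without the 10 most abundant in the total, and 4 of 47 in the adjusted table. With each library left out, 3 of 56 to 9 of 44 passed. With a mean of at least 10 counts let-7i-5p was not among the miRNAs tested. In libraries of at least 500 counts it was not tested either, and let-7b-5p was tested and lost. Otherwise the cause was not tested. let-7b-5p was lost in 2 of 8 other settings, the deep libraries and the adjusted table. With no group term let-7c-5p also passed (0.43, edgeR adjusted p = 0.0297), where 9 of 47 miRNAs passed below 1. Members whose count rose with the total by rank numbered 1, or 2 in libraries of at least 500 counts and 1 to 2 when each library was left out. Of all 47 miRNAs, 35, 29 and 33 to 36 passed in these runs.

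Replicate numbers were not taken to pair libraries, because no label says what they mark. The permutations of the rank test likewise ignore them. Deviations of same-numbered libraries from their group means had a mean correlation of 0.307 over 18 pairs (0.00574 to 0.628), above 0.1 in 15 of them. With the replicate block, let-7i-5p no longer passed and no group comparison of a member changed its call, while the 47 miRNAs gave 2 calls for FGF against NT in place of 1. let-7d-5p, let-7g-5p and miR-98-5p had 5 counts or fewer in all, too few to compare groups.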
